A study of Mus musculus with 19 samples.

Results

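The genes described here encode the aminoacyl-tRNA synthetases, and their transcripts were measured by RNA sequencing of small intestinal crypts from fed and fasted mice with and without neurotensin. A list of 36 genes, 20 for the cytosolic enzymes and 16 for the mitochondrial enzymes whose symbols end in 2, was matched by GENCODE symbol to the Ensembl gene identifiers of the count files. All 36 were found among the 55487 genes listed, and all 36 passed the filter on low counts that left 17875 genes for testing. The rule for the list used enzyme family and no measured value.

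Aminoacyl-tRNA synthetases join each amino acid to its own transfer RNA, the step that fixes the meaning of the genetic code before the ribosome reads it. Cells keep separate sets for the cytosol and for the mitochondrion, both encoded in the nucleus, although *Gars* and *Kars* each supply both compartments. Several cytosolic enzymes sit together in a multisynthetase complex with the scaffold proteins encoded by *Aimp1*, *Aimp2* and *Eef1e1*, whereas the others are free. When amino acids run short, uncharged transfer RNA activates the kinase GCN2, and the transcription factor ATF4 then raises many genes of amino acid supply, several cytosolic synthetase genes among them. The crypt epithelium renews itself continuously and has a high demand for protein synthesis.

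Neurotensin (NT) is a peptide hormone of the distal gut that is released on feeding. Crypts were collected from male and female C57BL/6 mice of the genotypes NT+/+ and NT-/-, which carry no functional *Nts* gene in any tissue, either fed ad libitum (AL) or deprived of food for 48 hours (Fast), with fed NT+/+ mice as the controls. The groups held 5 NT+/+ AL, 4 NT-/- AL, 5 NT+/+ Fast and 5 NT-/- Fast mice, 1 library each and 19 in all. The design asks how fasting alters crypt gene expression in each genotype and how loss of the peptide alters it in each diet. The constitutive deletion was present throughout life, so that acute and developmental effects cannot be told apart. The study describes its NT+/+ and NT-/- mice as Lgr5-EGFP reporter mice, an allele that the sample labels do not name. Its methods place crypt isolation in the proximal part of the small intestine, not over its whole length.

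Total counts ranged from 9059418 to 35068669 per mouse, and every synthetase gene other than *Lars2* had at least 76 counts in every mouse. *Nts* was at 6.75 to 8.59 CPM (counts scaled to the size of the library after TMM) in NT+/+ AL, 4.98 to 5.71 in NT+/+ Fast, 0.145 to 0.746 in NT-/- AL and 0.214 to 0.793 in NT-/- Fast mice. The mouse NT+/+ Fast-5 has a genotype label that contradicts its title; its *Nts* level of 5.43 CPM lay within the range of the other fasted NT+/+ mice, and it was grouped by title. All 7 epithelial markers were detected. The libraries of NT+/+ AL-1 and NT-/- Fast-2 had 11.6% and 2.94% of their counts on a ribosomal RNA gene, against 0.233% to 1.96% in the others, and results without these 2 mice are given where they differ.

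In fed NT+/+ crypts the cytosolic synthetase transcripts were more abundant than the mitochondrial ones. On the TPM scale, which divides by transcript length, the cytosolic genes had a median level of 50.4, and this median ranged from 46.6 to 56.5 over the 5 mice. Excluding *Lars2*, the mitochondrial genes had a median level of 15.1 TPM, with a range of 13.4 to 16.6 over the same mice. The highest levels were those of *Nars* (asparaginyl-tRNA synthetase; 187.7 ± 20.4 TPM; SD, n = 5), *Qars* (glutaminyl; 111 ± 13.2 TPM), and *Kars* (lysyl; 79.9 ± 2.32 TPM). The lowest were those of the mitochondrial enzymes *Mars2* (methionyl; 3.68 ± 0.510 TPM), *Pars2* (prolyl; 4.78 ± 0.641 TPM), and *Wars2* (tryptophanyl; 5.11 ± 0.492 TPM), and the last pair lay within 1 SD of each other.

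In 13 pairs the cytosolic and mitochondrial genes share a symbol apart from the final digit. In 11 of the 13 pairs the cytosolic transcript was higher in every fed NT+/+ mouse. *Eprs*, *Farsa* and *Farsb* were not set against *Ears2*, *Pars2* and *Fars2*. The ratio of TPM levels, cytosolic over mitochondrial, was 16.2 ± 1.38 for *Nars* over *Nars2* (n = 5) and 11.7 ± 2.23 for *Wars* over *Wars2*, the widest of the pairs. For *Iars* over *Iars2*, the isoleucyl pair, the ratio was 1.03 ± 0.113 and ranged from 0.899 to 1.17, so that both transcripts were at the same level within the spread between mice. *Iars2* stood highest among the mitochondrial genes other than *Lars2*, at 37.7 ± 2.75 TPM.

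**Figure D1:**
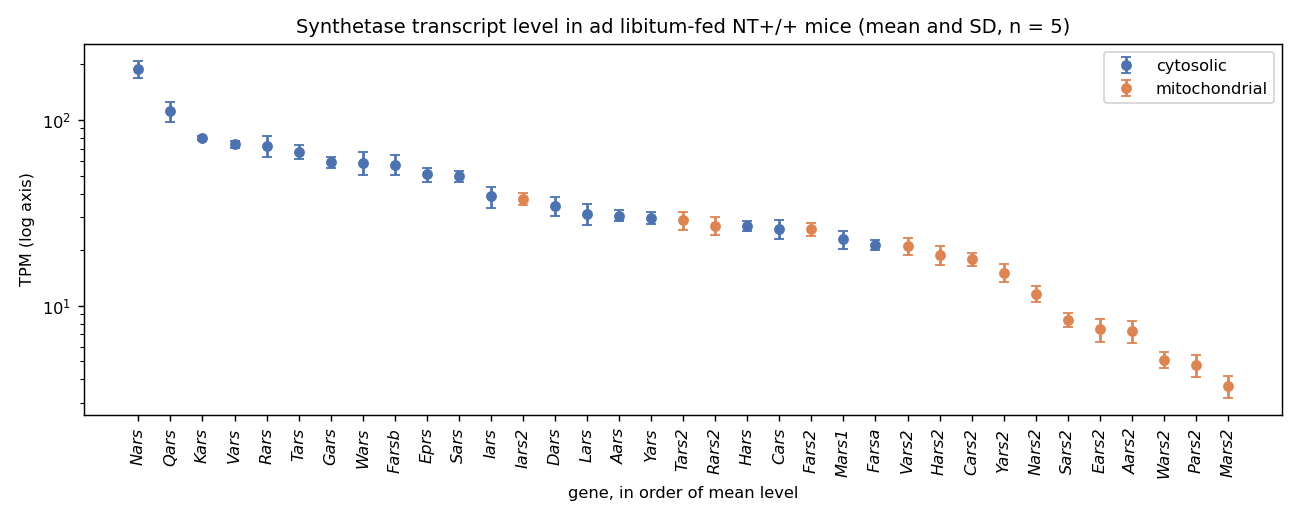
TPM level (log axis) of 35 synthetase genes in fed NT+/+ mice, in order of the mean; points are means and bars SD over 5 mice, blue for cytosolic and orange for mitochondrial enzymes, and *Lars2* is left out. Most cytosolic genes lie to the left, from *Nars* at 187.7 TPM, and the mitochondrial genes fill the right end, down to *Mars2* at 3.68 TPM.

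Fasting for 48 hours changed 10 of the 36 genes in NT+/+ crypts at an adjusted p under 0.05 (edgeR quasi-likelihood test, Benjamini-Hochberg adjustment over all 17875 genes). Of these, 7 fell (*Yars2*, *Wars2*, *Cars2*, *Dars*, *Aars2*, *Farsb*, *Rars2*) and 3 rose (*Gars*, *Iars2*, *Sars*). The share called was 27.8%, beside 21.6% of all genes tested; 19.4% were called lower, beside a background of 10.4%. The median log2 fold change was -0.145 over the 36 genes and -0.01 over all genes tested, and 25 of the 36 lay below 0, against 50.9% of all genes. At an unadjusted p under 0.05 there were 13 of 36, beside 34.1% of all genes.

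In NT-/- crypts fasting changed 16 of the 36 genes, of which 15 fell and 1, *Iars2*, rose. The share called was 44.4%, beside 25.2% of all genes tested, and 41.7% were called lower, beside 12.6%. The median log2 fold change was -0.201 over the 36 genes and -0.02 over all genes tested, and 30 of the 36 lay below 0, against 52.4% of all genes. At an unadjusted p under 0.05 there were 20 of 36, beside 36.5%. DESeq2 called 10 of the 36 genes in NT+/+ and 16 in NT-/- mice, beside 23.3% and 26.5% of all genes. The changes were small. After those of *Yars2* and *Wars2*, the largest called change in either genotype was that of *Sars2* in NT-/- mice, -0.53 on the log2 scale.

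The genes called overlapped between genotypes, and 8 genes were called in both, all 8 in the same direction. They made up 80% of the genes called in NT+/+ mice and 50% of those called in NT-/- mice. The same overlap over all genes was not counted, so these shares cannot be read as particular to the synthetase genes. *Gars* and *Sars* were called in NT+/+ mice only, 8 genes (*Cars*, *Eprs*, *Farsa*, *Iars*, *Wars*, *Yars*, *Sars2*, *Tars2*) in NT-/- mice only, and 18 in neither. This division changed when mice were paired by number in the model, since *Gars* then passed in NT-/- mice too (0.24; adjusted p = 0.0481 by the title numbers and 0.0215 by the file numbers) and *Iars* and *Wars* passed in NT+/+ mice. None of the 36 differed between genotypes in its response to fasting by the test of that difference (adjusted p under 0.05 in 0 of 36; unadjusted p under 0.05 in 2 of 36, beside 2.71% of all genes; DESeq2 0 of 36), and 0% of all genes did. The difference lay below 0, meaning a lower value in NT-/- mice, for 28 of 36 genes, beside 52% of all genes.

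**Figure D2:**
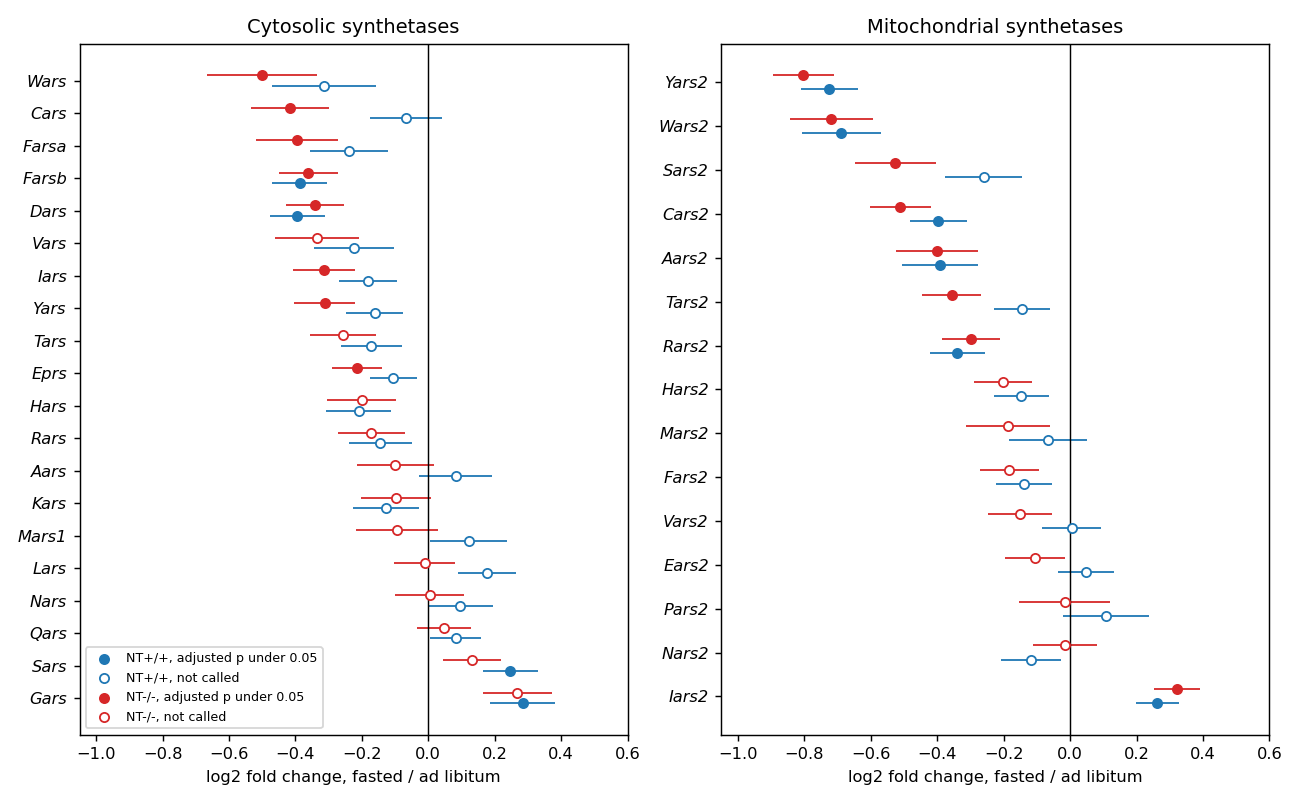
Log2 fold change, fasted over ad libitum, of 35 synthetase genes (*Lars2* left out) in NT+/+ (blue) and NT-/- (red) mice; bars are standard errors and filled points have an adjusted p under 0.05. Most points lie left of 0 in both panels, *Yars2* and *Wars2* lie farthest left, and *Iars2*, *Gars* and *Sars* lie to the right.

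Of the 16 mitochondrial genes, 5 fell and 1 rose in NT+/+ mice and 7 fell and 1 rose in NT-/- mice. The medians were -0.146 and -0.195 on the log2 scale. The shares called lower were 31.2% in NT+/+ and 43.8% in NT-/- mice, beside 10.4% and 12.6% of all genes. In either direction, 21.6% and 25.2% of all genes were called. The gene with the smallest p in both genotypes was *Yars2* (ENSMUSG00000022792, GRCm38 chromosome 16, 16302965 to 16309640, plus strand), which encodes the mitochondrial tyrosyl-tRNA synthetase. In the order of their numbers, NT+/+ AL mice had 19.7, 18.3, 20.5, 18.98 and 20.4 CPM and NT+/+ Fast mice 12.3, 11.9, 11.4, 10.5 and 13.1 CPM. NT-/- AL mice had 18.3, 17.2, 19.3 and 18.3 CPM and NT-/- Fast mice 9.93, 9.65, 9.54, 10.8 and 12.4 CPM. Every fasted mouse was below every fed mouse in both genotypes. *Yars2* fell by 39.5% in NT+/+ mice (log2 fold change, -0.73 ± 0.09, SE; adjusted p = 8.4e-06) and by 42.7% in NT-/- mice (-0.80 ± 0.09; adjusted p = 4.45e-06).

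*Wars2*, for the mitochondrial tryptophanyl-tRNA synthetase (ENSMUSG00000004233, GRCm38 chromosome 3, 99141068 to 99239186, plus strand), moved by almost as much. Its levels were 16.2, 14.01, 15.6, 14.3 and 14.9 CPM in NT+/+ AL and 9.15, 8.87, 9.52, 7.37 and 11.5 CPM in NT+/+ Fast mice. NT-/- AL mice gave 12.9, 15.3, 13.8 and 13.3 CPM and NT-/- Fast mice 7.58, 8.85, 6.71, 8.98 and 9.93 CPM. Here too the fasted and fed groups did not overlap. The log2 fold change was -0.69 ± 0.12 in NT+/+ (adjusted p = 0.000357) and -0.72 ± 0.13 in NT-/- mice (adjusted p = 0.000358).

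The cysteinyl enzyme gene *Cars2* (ENSMUSG00000056228, GRCm38 chromosome 8, 11513977 to 11550783, minus strand) was at 27.4, 24.8, 29.1, 27.1 and 22.9 CPM in NT+/+ AL and 20.2, 18.97, 17.7, 22.1 and 20.7 CPM in NT+/+ Fast mice. In NT-/- mice it was at 25.8, 27.4, 27.5 and 23.4 CPM when fed and 18.6, 20.9, 17.4, 16.4 and 18.1 CPM when fasted. Fed and fasted mice separated in both genotypes, with the closest pair in NT+/+ mice at 22.9 and 22.1 CPM. *Cars2* fell by 0.40 on the log2 scale in NT+/+ (SE, 0.09; adjusted p = 0.00262) and by 0.51 in NT-/- mice (SE, 0.09; adjusted p = 0.000435). It overlaps *Naxd* on the other strand over 984 bases, and the log2 fold changes of *Naxd* were -0.01 and -0.04.

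*Rars2*, the mitochondrial arginyl enzyme gene (ENSMUSG00000028292, GRCm38 chromosome 4, 34614957 to 34660167, plus strand), was at 33.8, 32.9, 37.5, 35.6 and 36.97 CPM in fed and 25.4, 25.04, 31.02, 26.4 and 31.6 CPM in fasted NT+/+ mice. The corresponding NT-/- values were 34.3, 35.4, 37.9 and 40.4 CPM and 29.2, 26.3, 33.6, 28.9 and 31.96 CPM. The fasted mice were again all below the fed ones, by log2 fold changes of -0.34 ± 0.08 (adjusted p = 0.00597) and -0.30 ± 0.09 (adjusted p = 0.017). In NT-/- mice the call was lost without the 2 mice with the most ribosomal RNA (-0.25; adjusted p = 0.0534) and without NT-/- AL-4 (-0.25; adjusted p = 0.0617).

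For *Aars2*, the mitochondrial alanyl enzyme gene (ENSMUSG00000023938, GRCm38 chromosome 17, 45506841 to 45520843, plus strand), NT+/+ AL mice had 20.4, 14.6, 20.8, 15.1 and 19.04 CPM and NT+/+ Fast mice 14.5, 14.2, 14.8, 12.5 and 12.5 CPM. NT-/- AL mice had 17.1, 17.5, 16.8 and 15.7 CPM and NT-/- Fast mice 12.3, 10.8, 11.9, 12.4 and 15.7 CPM. The highest fasted mouse reached into the range of the fed mice in both genotypes. The log2 fold changes were -0.39 ± 0.11 (adjusted p = 0.0183) and -0.40 ± 0.12 (adjusted p = 0.0203). The NT+/+ call was lost without NT+/+ AL-1, NT+/+ AL-3 or NT+/+ Fast-4 (adjusted p = 0.0535, 0.0555 and 0.0514), and the NT-/- call without NT-/- AL-2 (adjusted p = 0.0544).

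A pair of mitochondrial genes was called in NT-/- mice alone. *Sars2*, the seryl enzyme gene (ENSMUSG00000070699, GRCm38 chromosome 7, 28741992 to 28753871, plus strand), was at 13.1, 13.7, 12.1 and 11.98 CPM in NT-/- AL and 9.13, 8.62, 6.997, 8.58 and 10.8 CPM in NT-/- Fast mice. In NT+/+ mice it was at 14.1, 12.6, 15.9, 11.3 and 12.2 CPM when fed and 12.2, 9.76, 11.1, 10.4 and 11.7 CPM when fasted, and these ranges overlapped, whereas those of the NT-/- mice did not. Its log2 fold change was -0.53 ± 0.12 in NT-/- (adjusted p = 0.00377) and -0.26 ± 0.12 in NT+/+ mice (adjusted p = 0.114), and the difference between the genotypes was -0.27 ± 0.17 (adjusted p = 1.0).

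*Tars2*, the threonyl enzyme gene (ENSMUSG00000028107, GRCm38 chromosome 3, 95739976 to 95760206, minus strand), was at 53.8, 48.2, 51.8 and 50.6 CPM in NT-/- AL and 39.2, 38.8, 44.2, 39.7 and 37.7 CPM in NT-/- Fast mice, again without overlap. NT+/+ mice had 58.4, 44.04, 60.2, 51.5 and 57.03 CPM when fed and 47.9, 47.1, 54.6, 53.1 and 42.6 CPM when fasted, with overlapping ranges. The log2 fold change was -0.36 ± 0.09 in NT-/- (adjusted p = 0.0058) and -0.15 ± 0.08 in NT+/+ mice (adjusted p = 0.234), with a difference of -0.21 ± 0.12 between them (adjusted p = 1.0).

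*Iars2*, the mitochondrial isoleucyl enzyme gene (ENSMUSG00000026618, GRCm38 chromosome 1, 185284726 to 185329396, minus strand), was the only synthetase gene called higher in both genotypes. Fed NT+/+ mice had 137, 121, 123, 112 and 125 CPM and fasted NT+/+ mice 160.4, 152, 144, 143 and 142 CPM. In NT-/- mice the values were 127, 118, 126 and 118 CPM when fed and 161, 142, 141, 152 and 168 CPM when fasted. Every fasted mouse was above every fed mouse of its genotype. The gene rose by 19.9% in NT+/+ (0.26 ± 0.07; adjusted p = 0.00672) and by 24.9% in NT-/- mice (0.32 ± 0.07; adjusted p = 0.00206). It overlaps *Rab3gap2* on the other strand over 2034 bases; the counting is not stated to use strand, and *Rab3gap2* had log2 fold changes of 0.11 (adjusted p = 0.338) and 0.19 (adjusted p = 0.11).

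The 7 mitochondrial genes not called in either genotype other than *Lars2* (*Ears2*, *Fars2*, *Hars2*, *Mars2*, *Nars2*, *Pars2* and *Vars2*) had log2 fold changes between -0.15 and 0.11 in NT+/+ mice and between -0.20 and -0.02 in NT-/- mice. *Fars2*, *Hars2* and *Ears2* overlap other genes on the opposite strand.

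**Figure D3:**
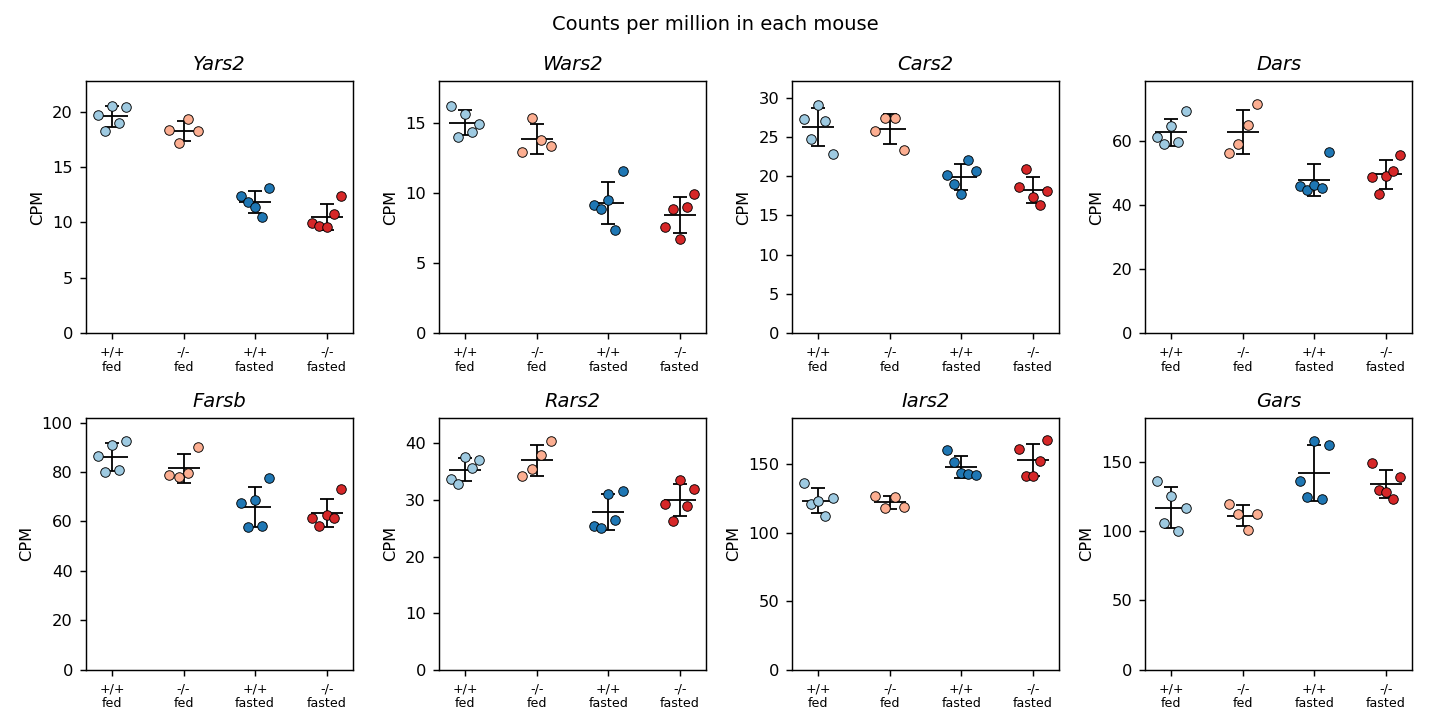
CPM of 8 synthetase genes in each mouse, by genotype and diet, with axes from 0; points are mice, and horizontal bars and whiskers are the mean and SD (n = 5, 4, 5 and 5). The fasted groups are lower for *Yars2*, *Wars2*, *Cars2*, *Dars*, *Farsb* and *Rars2* and higher for *Iars2*, and the fed and fasted NT+/+ groups of *Gars* overlap.

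Among the 20 cytosolic genes, 2 fell and 2 rose in NT+/+ mice, whereas 8 fell and none rose in NT-/- mice; the medians were -0.136 and -0.208 on the log2 scale. The 4 of 20 called in NT+/+ mice are near the share over all genes, 21.6%, and the 8 of 20 in NT-/- mice stand beside 25.2%. *Dars*, for aspartyl-tRNA synthetase, a member of the multisynthetase complex (ENSMUSG00000026356, GRCm38 chromosome 1, 128363707 to 128417368, minus strand), fell in both. Its levels were 61.02, 58.9, 64.5, 59.5 and 69.1 CPM in NT+/+ AL and 45.7, 44.7, 46.2, 45.1 and 56.4 CPM in NT+/+ Fast mice. NT-/- AL mice had 55.99, 58.8, 64.9 and 71.3 CPM and NT-/- Fast mice 48.8, 43.2, 49.1, 50.5 and 55.6 CPM. No fasted mouse reached the lowest fed mouse of its genotype, although NT+/+ Fast-5 and NT-/- Fast-5 came close to it. The log2 fold change was -0.39 ± 0.08 (adjusted p = 0.00219) in NT+/+ and -0.34 ± 0.09 (adjusted p = 0.00752) in NT-/- mice.

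Phenylalanyl-tRNA synthetase is built of α and β subunits, encoded by *Farsa* and *Farsb*. *Farsb* (ENSMUSG00000026245, GRCm38 chromosome 1, 78417975 to 78488897, minus strand) was at 86.3, 80.1, 90.8, 80.8 and 92.7 CPM in NT+/+ AL and 67.3, 57.7, 68.6, 58.2 and 77.4 CPM in NT+/+ Fast mice. In NT-/- mice it was at 78.6, 77.8, 79.5 and 90.1 CPM when fed and 61.5, 57.98, 62.8, 61.6 and 73.2 CPM when fasted. The groups did not overlap in either genotype. *Farsb* changed by -0.39 ± 0.08 (adjusted p = 0.00241) in NT+/+ and -0.36 ± 0.09 (adjusted p = 0.00502) in NT-/- mice. It shares 2315 bases with *Sgpp2* on the other strand, whose log2 fold changes were -0.35 (adjusted p = 0.00493) and -0.37 (adjusted p = 0.00409), and without a stated strand setting the reads of the overlap cannot be told apart. *Farsa* changed by -0.24 (adjusted p = 0.156) in NT+/+ and fell by 0.40 (adjusted p = 0.0249) in NT-/- mice, a call lost with sex in the model (-0.32; adjusted p = 0.0696) and without NT-/- AL-1, NT-/- AL-3, NT-/- Fast-4 or NT-/- Fast-5 (adjusted p from 0.0582 to 0.0732).

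*Cars*, for the cytosolic cysteinyl enzyme (ENSMUSG00000010755, GRCm38 chromosome 7, 143557230 to 143600090, minus strand), was called in NT-/- mice, at 37.6, 37.3, 35.3 and 35.6 CPM when fed and 23.7, 33.8, 25.4, 29.99 and 24.5 CPM when fasted. The NT+/+ values were 44.2, 34.3, 40.8, 34.2 and 41.9 CPM and 34.01, 33.4, 43.8, 31.98 and 43.0 CPM. The fed and fasted NT-/- mice separated, and the NT+/+ mice did not. The log2 fold change was -0.42 ± 0.12 in NT-/- (adjusted p = 0.0129) and -0.07 ± 0.11 in NT+/+ mice (adjusted p = 0.706). Their difference was -0.35 ± 0.16, with an adjusted p of 1.0. When NT+/+ Fast-5 was grouped by its genotype label, the change in NT-/- mice was -0.28 (adjusted p = 0.162).

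*Iars*, for the cytosolic isoleucyl enzyme of the complex (ENSMUSG00000037851, GRCm38 chromosome 13, 49682100 to 49734267, plus strand), was at 118, 115, 116 and 125 CPM in NT-/- AL and 102, 85.1, 96.97, 91.1 and 100.5 CPM in NT-/- Fast mice, without overlap. NT+/+ AL mice had 125, 101, 129, 108 and 131 CPM and NT+/+ Fast mice 107, 90.6, 113, 92.4 and 120.2 CPM, with overlap. The changes were -0.32 ± 0.09 (adjusted p = 0.017) in NT-/- and -0.18 ± 0.09 (adjusted p = 0.148) in NT+/+ mice. The NT-/- call was lost without NT-/- AL-4 (adjusted p = 0.0505) and with NT+/+ Fast-5 grouped as NT-/- (adjusted p = 0.0593). Cytosolic and mitochondrial isoleucyl genes thus had log2 fold changes of opposite sign in fasted mice of both genotypes, although in NT+/+ mice that of *Iars* was not called.

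The other cytosolic genes called in NT-/- mice were *Wars* (tryptophanyl; -0.50 ± 0.17; adjusted p = 0.0309), *Yars* (tyrosyl; -0.31 ± 0.09; adjusted p = 0.0174) and *Eprs*, which joins the glutamyl and prolyl enzymes in 1 protein (-0.22 ± 0.08; adjusted p = 0.0441). Each of these calls was lost when single mice were left out. That of *Wars* was lost without NT-/- AL-1, NT-/- AL-2, NT-/- Fast-2, NT-/- Fast-3 or NT-/- Fast-4 (adjusted p from 0.0691 to 0.0897), and that of *Yars* without NT-/- AL-2 (adjusted p = 0.0618) or with NT+/+ Fast-5 grouped as NT-/- (adjusted p = 0.0854). *Eprs* lost its call when any of the 4 NT-/- AL mice, NT+/+ AL-5, NT+/+ Fast-2, or NT-/- Fast-2, NT-/- Fast-3 or NT-/- Fast-4 was left out (adjusted p from 0.0509 to 0.102), and also without the 2 mice with the most ribosomal RNA (adjusted p = 0.101). *Yars*, *Wars*, *Hars* and *Mars1* overlap other genes on the opposite strand, over 30 to 544 bases.

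*Gars*, for glycyl-tRNA synthetase (ENSMUSG00000029777, GRCm38 chromosome 6, 55038007 to 55079500, plus strand), had the highest log2 fold change of the 36 genes in NT+/+ mice. Fed NT+/+ mice had 137, 106, 126, 99.9 and 116 CPM and fasted NT+/+ mice 136, 124, 165, 123 and 162 CPM. In NT-/- mice the values were 119.6, 112, 101 and 112 CPM when fed and 149, 130.1, 128, 123 and 139 CPM when fasted. The NT+/+ groups overlapped, since fed mouse NT+/+ AL-1 was above 3 of the fasted mice at 124.5, 123 and 136 CPM, and the NT-/- groups did not. The changes were 0.28 ± 0.10 (adjusted p = 0.0408) and 0.27 ± 0.10 (adjusted p = 0.0625), with a difference of -0.02 ± 0.14 between genotypes. The NT+/+ call was lost without NT+/+ AL-2, NT+/+ AL-4, NT+/+ AL-5, NT-/- AL-2, NT+/+ Fast-3 or NT+/+ Fast-5 (adjusted p from 0.051 to 0.115). In NT-/- mice *Gars* passed under some alternatives, DESeq2 among them (0.285; adjusted p = 0.0417).

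*Sars*, for seryl-tRNA synthetase, rose by 0.25 ± 0.08 in NT+/+ mice (adjusted p = 0.038) and changed by 0.13 ± 0.09 in NT-/- mice (adjusted p = 0.302). Its call was lost without NT+/+ AL-2, NT+/+ AL-4, NT+/+ AL-5, NT+/+ Fast-1, NT+/+ Fast-3 or NT+/+ Fast-5 (adjusted p from 0.0533 to 0.0955). The 10 cytosolic genes called in neither genotype (*Aars*, *Hars*, *Kars*, *Lars*, *Mars1*, *Nars*, *Qars*, *Rars*, *Tars* and *Vars*) had log2 fold changes from -0.22 to 0.18 in NT+/+ and from -0.34 to 0.05 in NT-/- mice. Where same-numbered mice were paired in the model, *Iars* (-0.18; adjusted p = 0.0358), *Vars* (-0.23; adjusted p = 0.035) and *Wars* (-0.29; adjusted p = 0.036) also passed in NT+/+ mice, which made 13 genes called, 10 of them lower. The same pairing added *Gars*, *Tars* (-0.28; adjusted p = 0.031) and *Vars* (-0.37; adjusted p = 0.00274) in NT-/- mice, for 19 genes called. The share of all genes called under this pairing was not counted.

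By structural class, 0 of the 9 class I cytosolic genes were called in NT+/+ mice (0 at an unadjusted p under 0.05; DESeq2, 0), and 4 were called in NT-/- mice, all lower (*Cars*, *Iars*, *Wars* and *Yars*). When mice were paired by either number in the model, the class I genes *Iars*, *Vars* and *Wars* passed in NT+/+ mice. *Vars* then also passed in NT-/- mice. The class I medians were -0.145 and -0.312. Of the 10 class II genes, 2 rose and 2 fell in NT+/+ and 3 fell in NT-/- mice, with medians of -0.149 and -0.15. *Eprs*, which holds an enzyme of each class, was counted in neither. Of the 8 genes whose enzymes sit in the multisynthetase complex, 1 fell in NT+/+ (*Dars*) and 3 in NT-/- mice (*Dars*, *Eprs* and *Iars*), with medians of -0.116 and -0.135. Of the 12 genes for free cytosolic enzymes, 2 rose and 1 fell in NT+/+ and 5 fell in NT-/- mice, with medians of -0.167 and -0.284. Over all genes, 21.6% were called in NT+/+ and 25.2% in NT-/- mice, and differences between the classes, or between complex and free enzymes, were not tested.

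Promoters of the genes are shown because many synthetase genes are known ATF4 targets, and the 5 cytosolic genes below hold the letters of a C/EBP-ATF response element, at which ATF4 binds with a C/EBP partner. RefSeq promoters of GRCm38.p6, 250 bases before to 50 after the gene start, were matched for 27 of the 36 genes. The motif TGATGNAA, on either strand (TTNCATCA on the other), was found in 5 of 13 cytosolic and 0 of 14 mitochondrial genes, and in 3.97% of all 32851 promoters in the table. The palindrome TGACGTCA was in 0 of 13 and 0 of 14, beside 1.79% of all promoters. The E-box CACGTG, which MYC and other factors bind, was in 4 of 13 cytosolic genes (*Aars*, *Farsb*, *Iars* and *Tars*) and 1 of 14 mitochondrial genes (*Ears2*), beside 7.15% of all promoters. A match of letters is a description and not a measured site. Capitals mark TGATGNAA or TTNCATCA in the 150 bases before and 20 after the start, read 5′ to 3′ on the strand of the gene:
*Aars*, chr8:111033692-111033861, plus strand: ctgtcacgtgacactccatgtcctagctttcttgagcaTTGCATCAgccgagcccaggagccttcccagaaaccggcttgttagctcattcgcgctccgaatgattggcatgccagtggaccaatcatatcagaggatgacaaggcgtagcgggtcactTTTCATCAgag
*Gars*, chr6:55037851-55038020, plus strand: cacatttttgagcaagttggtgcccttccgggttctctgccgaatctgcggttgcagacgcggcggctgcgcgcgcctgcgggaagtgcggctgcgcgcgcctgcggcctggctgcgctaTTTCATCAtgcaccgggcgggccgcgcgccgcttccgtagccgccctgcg
*Iars*, chr13:49681980-49682149, plus strand: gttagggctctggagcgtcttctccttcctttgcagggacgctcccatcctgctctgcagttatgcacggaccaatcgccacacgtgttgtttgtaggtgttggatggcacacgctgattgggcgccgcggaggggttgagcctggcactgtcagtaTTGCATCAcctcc
*Tars*, chr15:11399639-11399808, minus strand: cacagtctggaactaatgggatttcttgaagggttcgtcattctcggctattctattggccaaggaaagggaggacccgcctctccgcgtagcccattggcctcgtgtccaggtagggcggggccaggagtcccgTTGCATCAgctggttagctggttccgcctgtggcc
*Yars*, chr4:129189753-129189922, plus strand: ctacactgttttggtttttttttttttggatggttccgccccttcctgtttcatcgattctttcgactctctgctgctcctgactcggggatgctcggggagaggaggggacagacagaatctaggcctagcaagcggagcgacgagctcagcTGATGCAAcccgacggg

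Of these 5 genes, *Gars* rose in NT+/+ mice and *Iars* and *Yars* fell in NT-/- mice, while *Aars* (log2 fold changes, 0.08 and -0.10) and *Tars* (-0.17 and -0.26) were called in neither. In NT+/+ and NT-/- mice, the log2 fold changes were 0.28 and 0.27 for *Gars*, -0.18 and -0.32 for *Iars*, and -0.16 and -0.31 for *Yars*. Each of these genes thus had the same sign in both genotypes, and none was called in the test of the difference between genotypes. A part of the motif or of ATF4 in these values was not tested. For comparison, the same stretch is given for both genes that fell most, in which the motif was not found:
*Yars2*, chr16:16302815-16302984, plus strand: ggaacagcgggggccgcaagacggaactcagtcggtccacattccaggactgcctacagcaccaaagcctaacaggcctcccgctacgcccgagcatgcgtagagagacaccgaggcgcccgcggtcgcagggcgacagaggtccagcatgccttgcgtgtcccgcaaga
*Wars2*, chr3:99140940-99141109, plus strand: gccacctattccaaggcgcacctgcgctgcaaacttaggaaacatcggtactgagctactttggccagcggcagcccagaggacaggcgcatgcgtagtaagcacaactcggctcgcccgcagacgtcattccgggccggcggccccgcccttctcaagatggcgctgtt

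The partners of the synthetases were described with a list of 11 genes for scaffolds, tRNA export, editing and the mitochondrial amidotransferase. In NT+/+ mice 1 rose and 1 fell, and in NT-/- mice 1 rose and 3 fell, with medians of 0.019 and -0.075. The shares called were 18.2% and 36.4%, beside 21.6% and 25.2% of all genes. *Dtd2*, which encodes a deacylase that clears mischarged transfer RNA, rose by 0.40 ± 0.11 (adjusted p = 0.0114) and 0.68 ± 0.11 (adjusted p = 0.000246). *Gatb*, a subunit of the amidotransferase that forms glutaminyl-tRNA in mitochondria, fell by 0.40 (adjusted p = 0.00178) and 0.43 (adjusted p = 0.00143). The complex scaffold gene *Aimp2* changed by -0.26 ± 0.12 in NT+/+ mice (adjusted p = 0.137), and another such gene, *Eef1e1*, fell in NT-/- mice (-0.36 ± 0.11; adjusted p = 0.0223).

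Of 28 genes of the ATF4 and amino acid response, 27 were tested. In NT+/+ mice 7 rose and 0 fell, with a median log2 fold change of 0.26 and 10 of 27 below 0. At an unadjusted p under 0.05 there were 12 of 27, beside 34.1% of all genes. In NT-/- mice 4 rose and 3 fell, with a median of 0.04 and 12 of 27 below 0. The share called was 25.9% in each genotype, beside 21.6% and 25.2% of all genes. In NT+/+ mice all of this share was called higher, beside 11.2% of all genes. In NT-/- mice 11.1% were called lower, beside 12.6%, and over all genes 12.5% were called higher. *Atf5*, a transcription factor of this response, was at 9.69, 7.61, 7.20, 5.94 and 8.51 CPM in NT+/+ AL and 27.4, 22.7, 25.6, 18.3 and 40.6 CPM in NT+/+ Fast mice. Each fasted mouse was above each fed mouse, and the gene rose by 1.79 ± 0.19 (adjusted p = 3.03e-06) in NT+/+ and 1.40 ± 0.21 (adjusted p = 7.59e-05) in NT-/- mice. *Trib3*, an inhibitor of the response that ATF4 induces, rose by 1.37 ± 0.25 (adjusted p = 0.000708) and 2.07 ± 0.28 (adjusted p = 2.47e-05), and *Vldlr*, a lipoprotein receptor gene, by 0.69 ± 0.13 and 0.83 ± 0.14. The 3 genes that fell in NT-/- mice were *Mthfd2*, of mitochondrial folate metabolism (-0.60 ± 0.16; adjusted p = 0.0109), *Pycr1*, of proline synthesis (-0.67 ± 0.20; adjusted p = 0.0171), and *Slc1a5*, a glutamine transporter gene (-0.31 ± 0.11; adjusted p = 0.0458). Among the 7 genes of the eIF2 kinases, phosphatases and eIF2α, *Eif2s1*, which encodes eIF2α, fell in NT+/+ mice (-0.31 ± 0.09; adjusted p = 0.0235), and *Eif2ak1*, the kinase HRI, rose in NT-/- mice (0.31 ± 0.08; adjusted p = 0.00621). No others of the 7 were called, so that the share was 14.3% in each genotype, below that of all genes.

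*Wars* is known to be induced by interferon γ, and 9 of 11 genes of that response were tested. In NT+/+ mice 2 fell, namely *Psmb9* (-0.61 ± 0.15; adjusted p = 0.0059) and *Irf1* (-0.55 ± 0.14; adjusted p = 0.00652). In NT-/- mice 0 were called by edgeR, and 3 of the 9 had an unadjusted p under 0.05, beside 36.5% of all genes. The share called was 22.2% in NT+/+ and 0% in NT-/- mice, beside 21.6% and 25.2% of all genes. The list median was -0.40 in NT+/+ and 0.03 in NT-/- mice. Of the 3 genes, *Psmb9* had a value of -0.38 and *Tap1* and *H2-Ab1* of 0.44 and 0.66. *Wars* itself changed by -0.31 ± 0.16 (adjusted p = 0.161) in NT+/+ mice and fell by 0.50 ± 0.17 (adjusted p = 0.0309) in NT-/- mice. A part of interferon γ in these values was not tested.

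Markers of cell types moved with diet as well. Of 7 villus enterocyte markers, 6 rose in NT+/+ and 7 in NT-/- mice, with *Fabp1*, a fatty acid binding protein gene, at 2.09 ± 0.23 and 2.06 ± 0.25. Their summed level was 1939 to 3654 CPM in NT+/+ AL, 3742 to 8624 in NT+/+ Fast, 2805 to 4113 in NT-/- AL and 7548 to 10100 in NT-/- Fast mice, and none was at 0. Of 10 proliferation genes, 6 fell in NT+/+ and 9 in NT-/- mice, with *Top2a* at -0.62 ± 0.11 and -0.78 ± 0.12. The shares called were 85.7% and 100% of the villus markers and 60% and 90% of the proliferation genes. Over all genes they were 21.6% and 25.2%. Of 3 stem cell markers, *Olfm4* fell in both (-0.63 ± 0.21 and -0.92 ± 0.22), while *Lgr5* (0.29 ± 0.19 and -0.02 ± 0.20) and *Ascl2* (0.63 ± 0.28 and 0.12 ± 0.30) were called in neither. Epithelial, Paneth cell, immune and stromal markers gave 0 calls by edgeR (at most 2 of a list at an unadjusted p under 0.05). In bulk crypt RNA, fewer cells of a type and less RNA per cell cannot be told apart. The part of these shifts in the fall of the synthetase genes was not tested.

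*Lars2*, for the mitochondrial leucyl enzyme (ENSMUSG00000035202, GRCm38 chromosome 9, 123366927 to 123462666, plus strand), behaved unlike the other 35 genes. NT+/+ AL mice had 10470, 195, 1030, 296 and 449.6 CPM and NT+/+ Fast mice 413, 1558, 278, 278 and 389 CPM. NT-/- AL mice had 806, 586, 201 and 167 CPM and NT-/- Fast mice 1046, 2153, 393, 519.6 and 447 CPM. NT+/+ AL-1 stood far above all others, followed by NT-/- Fast-2 and NT+/+ Fast-2, and the diets overlapped in both genotypes. Between the highest and the lowest mouse the level differed 62.5-fold, whereas among the other 35 genes the largest such ratio was 2.41.

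The ribosomal RNA gene CT010467.1, chosen after its values were seen, varied alongside, from 2300 to 133200 CPM or 57.9-fold, and the same 3 mice were highest for it in the same order. *Lars2* counts per 1000 counts of this gene lay between 58.6 and 123 in all 19 mice, a 2.10-fold range. The log2 fold change of *Lars2* on fasting was -2.09 ± 0.91 in NT+/+ (adjusted p = 0.111) and 1.05 ± 0.95 in NT-/- mice (adjusted p = 0.467), and in NT+/+ mice it was 0.24 without NT+/+ AL-1. The TPM level of this gene, 678 ± 1180 in fed NT+/+ mice, was therefore left out of the order of levels. The part of ribosomal RNA reads in these values was not tested.

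**Figure D4:**
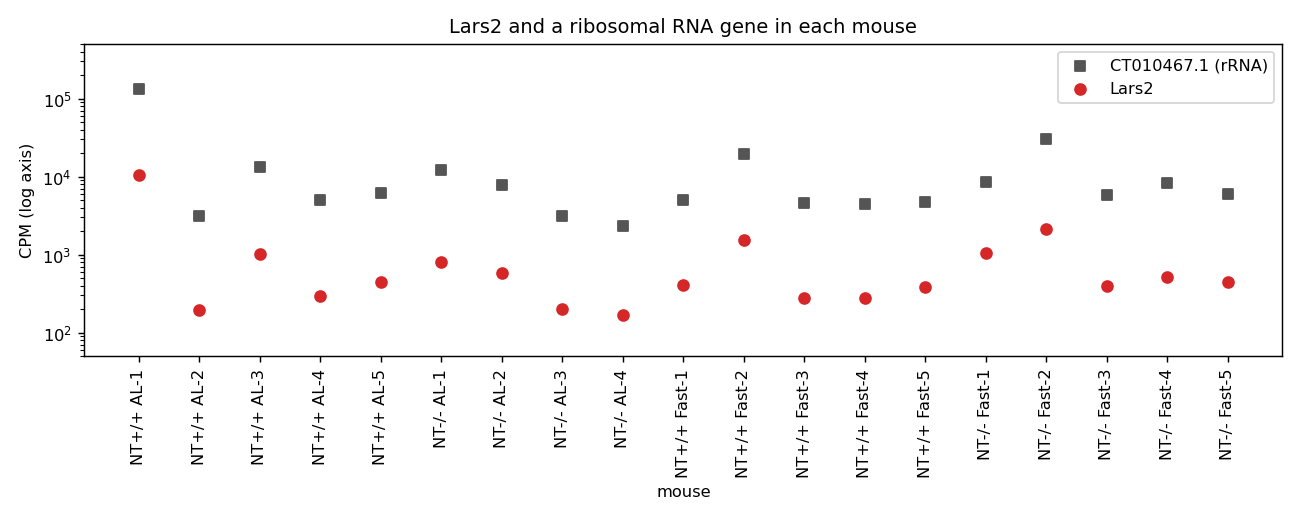
CPM (log axis) of *Lars2* (red circles) and of the ribosomal RNA gene CT010467.1 (grey squares) in each of the 19 mice. Both rise and fall together from mouse to mouse, and NT+/+ AL-1 is highest for both, at 10470 and 133200 CPM.

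No synthetase gene was called between the genotypes in fed mice. At an adjusted p under 0.05, 0 of 36 were called between NT-/- AL and NT+/+ AL mice by edgeR and 0 by DESeq2, beside 0.00559% (1 gene) and 0.0168% (3 genes) of all genes, and 1 of 36, *Lars2*, had an unadjusted p under 0.05, beside 1.67% of all genes. The median log2 fold change was -0.065 over the 36 genes and -0.001 over all genes, and 29 of 36 lay below 0, against 50.4% of all genes.

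In fasted mice 0 of 36 were called between NT-/- and NT+/+ by edgeR, beside 0.00559% of all genes, although 8 of 36 had an unadjusted p under 0.05, beside 9.14% of all genes. The median was -0.134, against -0.01 over all genes, and 31 of 36 lay below 0, among them 19 of 20 cytosolic genes, against 52.7% of all genes. The smallest p was that of *Cars*, whose fasted values, given above, ranged from 31.98 to 43.8 CPM in NT+/+ and from 23.7 to 33.8 CPM in NT-/- mice, with overlap. Its log2 fold change was -0.45 ± 0.11 (adjusted p = 0.212), and DESeq2 called it lower in NT-/- mice (-0.44; adjusted p = 0.0274), 1 of 101 genes it called, or 1.06% of those to which it gave an adjusted p. It was followed by *Tars2* (-0.30 ± 0.08; adjusted p = 0.275), *Sars2* (-0.32 ± 0.12; adjusted p = 0.39) and *Yars* (-0.23 ± 0.09; adjusted p = 0.398). Of the 10 proliferation genes, 0 were called by edgeR in this comparison, 8 had an unadjusted p under 0.05 and 10 lay below 0, with a median of -0.248. Of the 7 villus enterocyte markers, 0 were called and 4 had an unadjusted p under 0.05, and 7 lay above 0, with a median of 0.458 and summed levels that overlapped, from 7548 to 10100 CPM in the fasted NT-/- group and 3742 to 8624 CPM in the fasted NT+/+ group. The part of either list in the values of the synthetase genes was not tested.

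**Figure D5:**
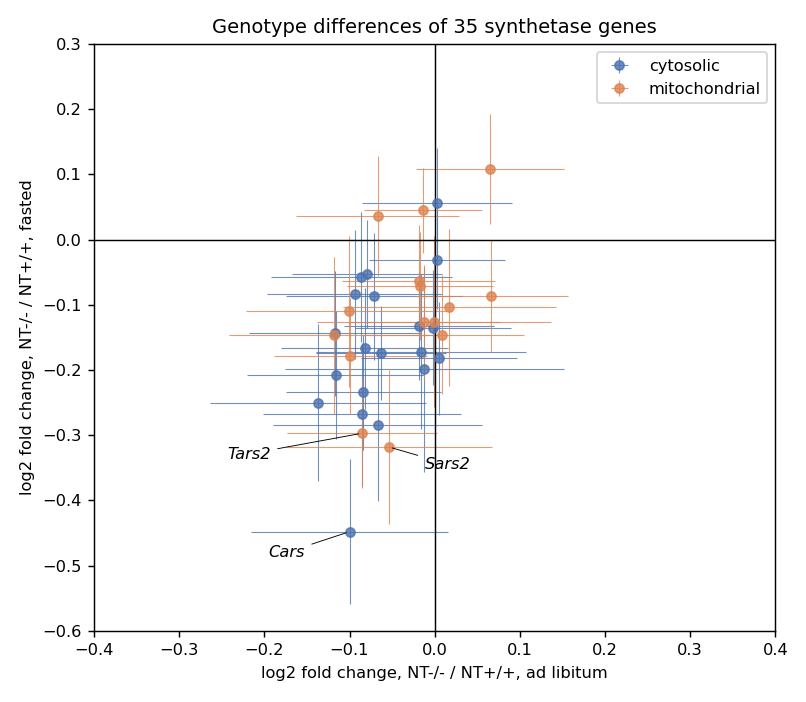
Log2 fold change, NT-/- over NT+/+, of 35 synthetase genes (*Lars2* left out) in fed mice (horizontal axis) and in fasted mice (vertical axis), with standard errors; the 2 axes rest on different mice. Most points lie below 0 on the vertical axis, and *Cars* is lowest, at -0.45.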

How the data were processed

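The deposited files hold, per gene and mouse, RSEM expected counts, which the authors obtained by trimming single-end reads of ribosomal RNA-depleted libraries with Trimmomatic (version 0.39) and mapping them to Ensembl transcripts of GRCm38. RSEM divides reads that fit several transcripts by its model. Deposited TPM values, scaled by the authors for length and library, served only to order genes by level. FPKM values and effective lengths in bases, another unit, both deposited by the authors from RSEM, were not used. The RSEM version and the strand setting are not given in the sources used here.

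Expected counts were rounded, normalized by TMM and tested with the quasi-likelihood F test of edgeR (version 4.0.16; R, 4.3.3) on the 17875 genes kept by filterByExpr, with 1 coefficient for each of the 4 groups, no covariate and 15 residual degrees of freedom (common dispersion, 0.0357). The Benjamini-Hochberg adjustment covered all genes tested, at 0.05. Each standard error was the size of the log2 fold change divided by the root of F. The test was also run on simulated counts, with unpaired mice and with changes larger than most of those given here. Alternatives were DESeq2 (version 1.42.0), other normalizations and filters, a likelihood ratio test, sex as a covariate (without NT-/- Fast-5, whose sex is not labelled), a replicate block, regrouping of NT+/+ Fast-5 by its genotype label, fits of only the groups compared, 19 fits that leave out 1 mouse each, and, chosen after the data were seen, a fit without 2 mice with the most ribosomal RNA.

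Mice with the same number in their titles deviated together from their group means in the fasting comparison of NT+/+ mice (5 pairs; lowest correlation, 0.165) and the genotype comparison of fasted mice (5 pairs; lowest, 0.124). The pairs were mixed in the fasting comparison of NT-/- mice (4 pairs; -0.0648 to 0.379) and the genotype comparison of fed mice (4 pairs; 0.00592 to 0.342). In each of these last comparisons 4 of 8 mice correlated best with their own title number. By the numbers in the file names, which differ from the titles in NT-/- AL mice, every pair of these last comparisons was above 0.1 as well (lowest, 0.123 and 0.117), and 8 of 8 mice correlated best with their own number in each. The labels do not say what a number marks. All labelled mice that share a file number were of the same sex, and title numbers departed from this only in NT-/- AL mice. A block of the file numbers thus also took in sex. The part of sex in these correlations was not tested.

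Every one of the 36 genes is accounted for. Values in each mouse are given for at most 12 genes with the smallest p among those called in a fasting or genotype comparison and for the highest and lowest fold change in each fasting comparison, and other lists are given by counts and their 3 genes with the smallest p. The genes and lists were chosen with earlier results of these data known. From these other lists 2 genes that are not among the 36 are not reported here, and the counts and medians of their lists leave them out.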

Additional observations from a re-analysis of the deposited data

Results flagged for a closer look

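In 56 groups of 4 or 5 mice examined for a value far from the others, of which chance gives about 1 in 20, 4 values stood apart. *Dars* was at 56.4 CPM in NT+/+ Fast-5, against 44.7 to 46.2 CPM in the other fasted NT+/+ mice. NT+/+ Fast-5 is the mouse whose title and genotype label disagree. *Farsb* was at 90.1 CPM in NT-/- AL-4, against 77.8 to 79.5 CPM in the other fed NT-/- mice. *Lars2* was at 10470 CPM in NT+/+ AL-1, against 195 to 1030 CPM in the other fed NT+/+ mice, and at 1558 CPM in NT+/+ Fast-2, against 278 to 413 CPM in the other fasted NT+/+ mice. These libraries also ranked 1 and 3 of 19 for the level of the ribosomal RNA gene.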

How the results depend on the processing

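The number of synthetase genes called kept within 1.5 times its value under every alternative run, with 1 exception. DESeq2 called 1 gene, *Cars*, between fasted NT-/- and NT+/+ mice, where edgeR called 0. On fasting, other tools, filters, normalizations and groupings called 8 to 14 genes in NT+/+ and 13 to 21 in NT-/- mice, and without the 2 mice with the most ribosomal RNA the counts were 10 and 14. Of the alternatives, the share of all genes called was counted for DESeq2 only. Leaving out 1 mouse at a time gave 8 to 10 and 12 to 18 genes, and 0 genes in the genotype comparisons and for the difference between genotypes. In these fits the cytosolic median ranged from -0.177 to -0.083 in NT+/+ and from -0.25 to -0.181 in NT-/- mice, and the mitochondrial median from -0.192 to -0.127 and from -0.23 to -0.156. The change of *Lars2* in NT+/+ mice ranged from -2.851 without NT+/+ Fast-2 to 0.244 without NT+/+ AL-1, reversed in direction, and was likewise reversed, to 0.237, without the 2 mice with the most ribosomal RNA. *Dars*, *Farsb*, *Cars2*, *Iars2*, *Rars2*, *Wars2* and *Yars2* were called in NT+/+ mice under every alternative. The calls of *Gars* and *Sars* in NT+/+ mice were lost without the filter on low counts (adjusted p = 0.0895 and 0.102) and with NT+/+ Fast-5 grouped as NT-/- (0.12 and 0.13), and that of *Gars* also with only the groups compared (0.0823). *Eprs* in NT-/- mice lost its call under 6 alternatives besides those that leave out mice, DESeq2 among them (0.0514). The causes were not tested.

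With the replicate block of the title numbers, 13 genes were called in NT+/+ and 19 in NT-/- mice, and with that of the file numbers 14 and 21. The share of all genes called with either block was not counted. Whether the added calls were particular to the synthetase genes was therefore not tested. Both blocks added *Gars*, *Tars* and *Vars* in NT-/- mice, and that of the file numbers added *Hars* in both genotypes and *Rars* in NT-/- mice. Neither changed a genotype call or lost a call. At this depth, with at least 76 counts per gene and mouse, standard errors on fasting ranged from 0.065 to 0.165 on the log2 scale for the 35 genes other than *Lars2*.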
